A study of Mus musculus with 12 samples.

Results

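Upper-layer cortical neurons fill layers 2 to 4 and send most of their axons to other cortical areas, in part through the corpus callosum. They are born late, and their identity is set by homeobox, POU, nuclear receptor and LIM-domain transcription regulators, several of which are already on in the progenitors that make them. Described here are 9 genes of that programme, chosen by name: the cut-type homeobox genes Cux1 and Cux2, the POU-domain genes Pou3f2 and Pou3f3, the nuclear receptor Rorb, the LIM-domain genes Lmo4 and Lhx2, the adhesion molecule Mdga1 and the Ras activator Rasgrf2. All 9 had 1 row of the 23951 rows in each table, and all 9 were tested by the authors in every comparison.

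RNA was sequenced from the dissected cortex of C57BL/6 mice of 3 genotypes at Mir137: knockout (KO), heterozygous (Het) and wild type (WT), with 4 libraries of each genotype (12 libraries altogether). The series' design text sets out to learn the role of miR-137, a microRNA abundant in brain, in neural development. The sources used here give neither the age of the mice nor how the allele was made. The values are the authors' RPKM (reads scaled by transcript length and by sequencing depth), 1 pooled value per genotype in each of 3 pairwise tables, so no SD can be attached and the depth is unknown. "Rose" and "fell" are used only for an adjusted p under 0.05 in the authors' deposited tables. The smallest unadjusted p the authors give is 5e-05. Genes at this floor share an adjusted p of 0.00135 in Het, 0.000987 in KO or 0.00517 in KO against Het. Whether each library is a separate animal is not stated, so these p-values may measure technical spread only. A log2 fold here is taken on log2(RPKM + 1), a scale that understates the change of low genes. Mir137 itself was listed at 0 in all 3 genotypes, so its row checks no label.

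Among the 9 genes, Rasgrf2 fell in both Het and KO cortex and Pou3f2 rose in Het cortex. The other 7 did not pass the test in any comparison. Against WT, 2 of 9 were thus called in Het, where 9.0% of all tested genes were, and 1 of 9 in KO, where 14.4% were. In the direct comparison of KO with Het cortex 0 of 9 passed, where 1.87% of all tested genes did. Rasgrf2 stood 24% below WT in Het and 27% below WT in KO, and Pou3f2 stood 52% above WT in Het.

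A microRNA of this kind pairs with messenger RNAs mostly through its seed, bases 2 to 8, and lowers their level or translation. The mature strand miR-137-3p lies at chr3:118433901-118433923 on the plus strand (RefSeq, GRCm38.p6). It is shown because the 3′ UTRs of the 9 genes were searched for matches to its seed, which stands in capitals.

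miR-137-3p: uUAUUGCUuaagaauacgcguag

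The search took AGCAATA (the match to bases 2 to 8), GCAATAA (bases 2 to 7 followed by A) and AGCAATAA (both) on the transcript strand of the longest annotated 3′ UTR of each gene (GENCODE M21, GRCm38). The shorter forms overlap within the longest, and each position was counted once. Of the 9 members 3 held a match, namely Cux1 with 3, Cux2 with 1 and Pou3f3 with 1, and none held the longest form. Of 12463 genes of at least 1 RPKM with an annotated 3′ UTR, 16.1% held a match, and 46.2% of the 936 whose 3′ UTR was at least as long as the members' median of 4229 nt did. The 5 windows of 30 bases are shown with the match in capitals, since they are the only such letters in these 9 untranslated regions.

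Cux1, chr5:136271677-136271706, minus strand: tcatcttgaaaAGCAATAttcaagtgcctt
Cux1, chr5:136267024-136267053, minus strand: tttgcgtttgtGCAATAActacttgctagg
Cux1, chr5:136266481-136266510, minus strand: tgatacggagaAGCAATAtcaccgaagctc
Cux2, chr5:121856475-121856504, minus strand: caagacgcaagAGCAATAgggcagggcaga
Pou3f3, chr1:42700371-42700400, plus strand: ggagttgctttAGCAATAgtggttattcac

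The 2 members that passed the test, Pou3f2 and Rasgrf2, held none of these letters in 3′ UTRs of 4014 and 4032 nt. With the shortest annotated 3′ UTR of each gene, the Pou3f3 match was the only one left. In that setting 9.2% of the 12463 genes held a match. The share was 15.8% of the 6425 genes at least as long there as the members' median of 435 nt. A match of letters is a description and not a site shown to be used.

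**Figure D1:**
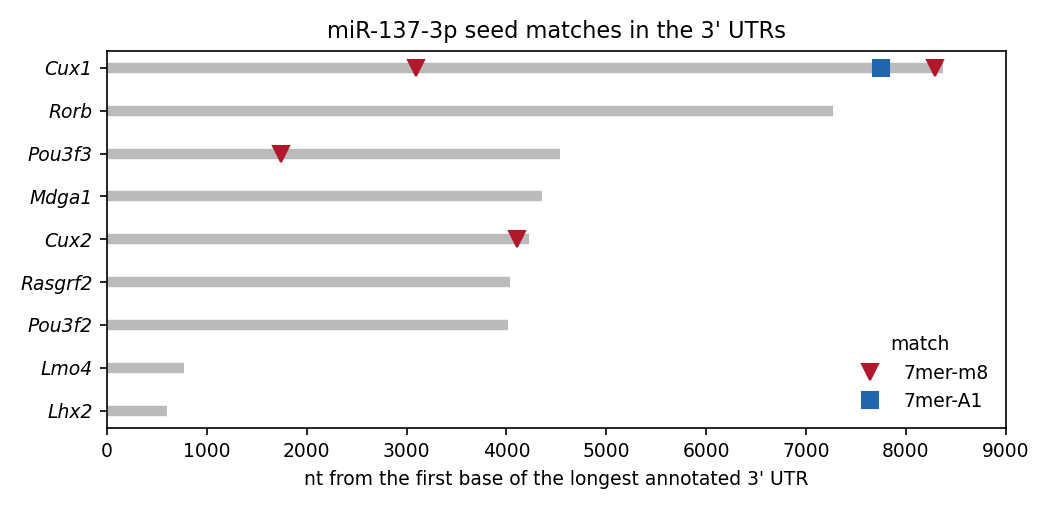
Position of miR-137-3p seed matches in the longest annotated 3′ UTR of each of the 9 genes; grey bars give the length of the untranslated region in nt, red triangles matches to bases 2 to 8 and the blue square the match to bases 2 to 7 followed by A. Cux1 holds 3 matches in 8376 nt, Cux2 and Pou3f3 hold 1 each, and the other 6 genes hold none.

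Levels per length spread widely over the 9 genes. Lmo4, a LIM-only adaptor that bridges transcription factors, was the highest, at 117 RPKM in KO, 115 in Het and 98.1 in WT. That placed it above 93.7% of the 13423 genes of at least 1 RPKM in WT. Lhx2, a LIM-homeodomain factor of cortical progenitors and upper-layer neurons, came next with 34.6 RPKM in KO, 35.5 in Het and 34.7 in WT, followed by Pou3f3. Rorb, the layer 4 nuclear receptor, was the lowest at 2.19 RPKM in KO, 2.11 in Het and 1.79 in WT, and only 8.27% of those WT genes lay below it. The order of the 9 was the same in KO and WT. In Het, Pou3f2 at 3.78 RPKM stood above Cux2 at 2.76, whereas in WT Pou3f2 had 2.48 and Cux2 3.78. With 1 pooled value per genotype, no spread can be set against the steps between neighbours in this order. The value of a genotype differed between the tables by at most 0.539% for KO, 0.693% for Het and 0.0768% for WT over these 9 genes.

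**Figure D2:**
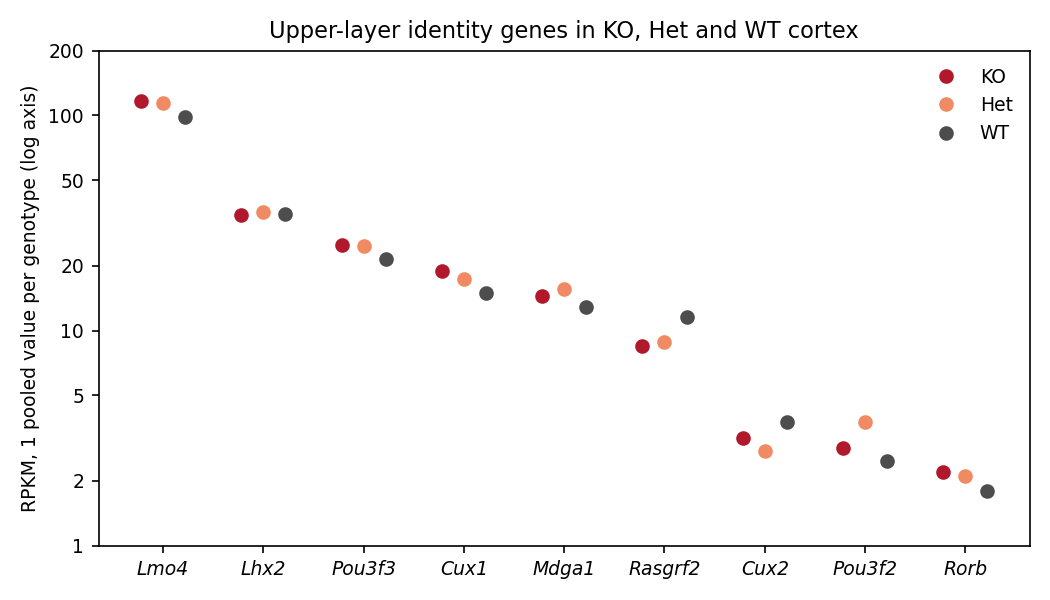
RPKM of each gene in KO (dark red), Het (orange) and WT (grey) cortex on a log axis, 1 pooled value per genotype and so without error bars, in the order of the WT level. Levels run from 117 RPKM for Lmo4 in KO to 1.79 for Rorb in WT, and the genotype values of Cux1 and Mdga1 overlap, as do those of Cux2 and Pou3f2.

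The first comparison sets Het against WT cortex. Of the 9 members 1 rose and 1 fell, where 9.0% of all 14159 tested genes were called in either direction (3.95% higher and 5.06% lower). At an unadjusted p below 0.05 the count was 5 of 9 members, against 19.5% of all tested genes. The median log2 fold of the members was 0.20, with a range of -0.36 to 0.46, beside 0.01 over all tested genes. A fold above 0 was seen in 7 members and below 0 in 2, beside 7305 and 6853 of all 14159 tested genes.

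Pou3f2 (Brn2), at chr4:22482780-22488366 on the minus strand of GRCm38, encodes a POU-domain factor that acts with its close relative Pou3f3 in the birth and migration of upper-layer neurons. The authors' deposited table gave Pou3f2 3.78 RPKM in Het and 2.48 in WT, a 1.52-fold higher level with a log2 fold of 0.46 (adjusted p 0.00244). Among called genes of at least 1 RPKM that were higher in Het, the median log2 fold was 0.50. Pou3f3 (Brn1) had 24.8 RPKM in Het and 21.5 in WT, with a log2 fold of 0.20 (adjusted p 0.336 in the authors' deposited table). Pou3f3 was thus the more abundant of the pair, 6.57 times the level of Pou3f2 in Het and 8.66 times in WT.

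Cux1 and Cux2 mark layers 2 to 4 and shape the dendrites and spines of their neurons. Their values lay on opposite sides of WT, and neither passed the test. Cux1 had 17.3 RPKM in Het and 14.9 in WT (log2 fold 0.20, adjusted p 0.403 in the authors' deposited table). Cux2 had 2.76 RPKM in Het and 3.77 in WT, a log2 fold of -0.34, and lay just outside the threshold (unadjusted p 0.00585 and adjusted p 0.0603 in the authors' deposited table). Cux1 stood at 6.27 times the level of Cux2 in Het and 3.95 times in WT. The Cux1 locus also makes transcripts of a Golgi protein that share its first exons, and a value per gene does not separate the 2 products.

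Rorb had 2.11 RPKM in Het and 1.79 in WT (log2 fold 0.16, adjusted p 0.462 in the authors' deposited table). Lmo4, of the LIM-domain genes, had 115 RPKM in Het and 98.0 in WT, with a log2 fold of 0.23 (adjusted p 0.232 in the authors' deposited table). Lhx2 was close to level at 35.5 RPKM in Het and 34.7 in WT (log2 fold 0.03, adjusted p 0.944 in the authors' deposited table).

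Outside the nucleus, Mdga1 encodes a membrane-anchored immunoglobulin-type adhesion protein that takes part in the migration of layer 2 and 3 neurons and binds neuroligins at synapses. It had 15.6 RPKM in Het and 12.9 in WT, with a log2 fold of 0.25 (unadjusted p 0.0179 and adjusted p 0.132 in the authors' deposited table). Rasgrf2, at chr13:91880400-92131656 on the minus strand of GRCm38, encodes a calcium-activated exchange factor that loads Ras with GTP. The authors' deposited table gave Rasgrf2 8.83 RPKM in Het and 11.6 in WT, a log2 fold of -0.36 (adjusted p 0.009997). Called genes of at least 1 RPKM that were lower in Het had a median log2 fold of -0.53, so the fall of Rasgrf2 was smaller than most.

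The second comparison sets KO against WT cortex, with the same WT libraries as the first. Rasgrf2 was the only member called: 1 of 9 fell and 0 rose, where the authors' test called 14.4% of all 14059 tested genes (6.72% higher and 7.68% lower). At an unadjusted p below 0.05 it was 3 of 9 members, against 26.5% of all tested genes. The count of called members was therefore near the background. The median log2 fold of the members was 0.15, with a range of -0.42 to 0.32, beside 0.01 over all tested genes.

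Rasgrf2 had 8.44 RPKM in KO and 11.6 in WT, a log2 fold of -0.42 (adjusted p 0.00386 in the authors' deposited table). Its value was 1.38-fold lower in KO. Pou3f2 was not called in this comparison, at 2.85 RPKM in KO and 2.48 in WT (log2 fold 0.14, adjusted p 0.444 in the authors' deposited table). Pou3f3 had 24.9 RPKM in KO and 21.5 in WT, a log2 fold of 0.20 (adjusted p 0.272 in the authors' deposited table).

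Cux1 had the largest positive fold of the 9, at 18.9 RPKM in KO and 14.9 in WT (log2 fold 0.32, unadjusted p 0.0150 and adjusted p 0.0844 in the authors' deposited table). Cux2 had 3.15 RPKM in KO and 3.78 in WT, a log2 fold of -0.20 (adjusted p 0.274 in the authors' deposited table). Cux1 stood at 5.99 times the level of Cux2 in KO and 3.95 times in WT, a description without an error.

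Rorb had 2.19 RPKM in KO and 1.79 in WT, with a log2 fold of 0.20 (adjusted p 0.214 in the authors' deposited table). Lmo4 had 117 RPKM in KO and 98.1 in WT, with a log2 fold of 0.25 (unadjusted p 0.0414 and adjusted p 0.166 in the authors' deposited table). Mdga1 had 14.5 RPKM in KO and 12.9 in WT, and the authors' deposited table gave an adjusted p of 0.423. Lhx2 differed by 0.08% between the genotypes, at 34.6 RPKM in KO and 34.7 in WT (adjusted p 0.996 in the authors' deposited table). None of these 4 values can be called different from WT with the test at hand.

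**Figure D3:**
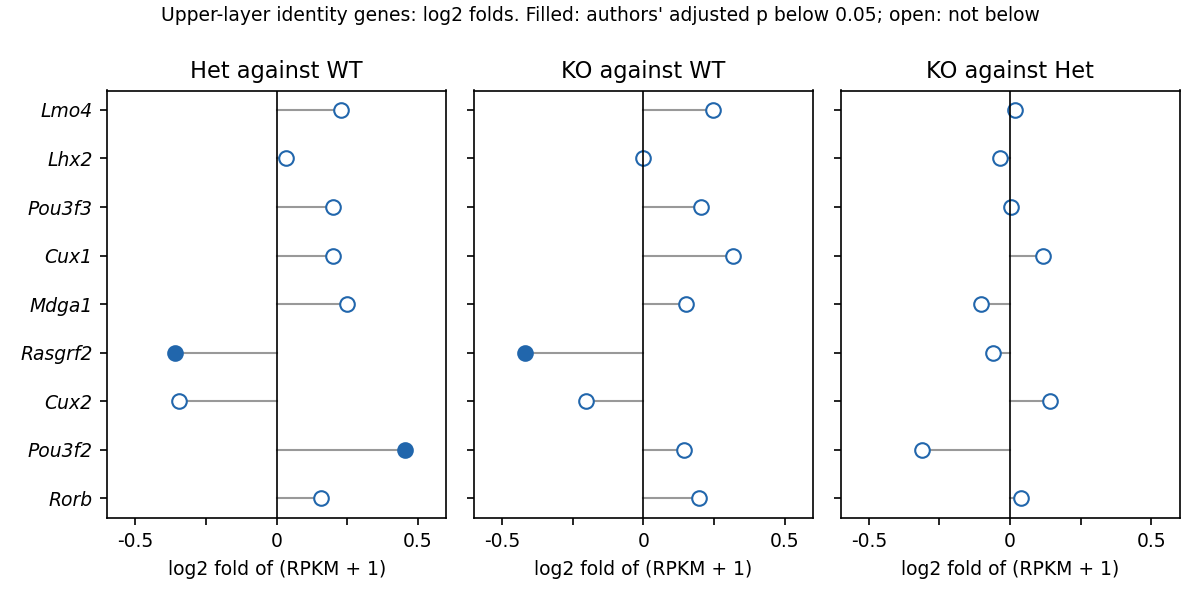
Log2 fold of (RPKM + 1) of each gene in Het against WT, KO against WT and KO against Het, with genes in the order of their WT level; filled points have an authors' adjusted p below 0.05 and open points do not. Filled points are Pou3f2 (0.46) and Rasgrf2 (-0.36) in Het against WT and Rasgrf2 (-0.42) in KO against WT.

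The third table sets KO against Het directly, which tests whether the 2 mutant genotypes differ. Of the 9 members 0 were called by the authors' test, where 1.87% of all 14062 tested genes were (0.917% higher and 0.953% lower), and 1 of 9 had an unadjusted p below 0.05, against 9.81% of all tested genes. That member was Pou3f2, at 2.87 RPKM in KO and 3.80 in Het, a log2 fold of -0.31 (unadjusted p 0.0115 and adjusted p 0.247 in the authors' deposited table). Its rise in Het is therefore not shown to be absent from KO. Rasgrf2 had 8.48 RPKM in KO and 8.89 in Het (log2 fold -0.06, adjusted p 0.970 in the authors' deposited table). Cux2 had the largest positive fold of the members, 0.14, at 3.17 RPKM in KO and 2.78 in Het (adjusted p 0.839 in the authors' deposited table). Folds of the 9 ran from -0.31 to 0.14, with a median of 0.00.

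Close relatives of the members were read beside them. Rasgrf1, the related calcium-regulated Ras exchange factor, fell as Rasgrf2 did. It had 54.8 RPKM in Het and 78.6 in WT, a log2 fold of -0.51 (adjusted p 0.00135 in the authors' deposited table). In KO it had 52.7 RPKM and in WT 78.7, a log2 fold of -0.57 (adjusted p 0.000987 in the authors' deposited table). Rasgrf1 was the more abundant of the 2, at 6.24 times the Rasgrf2 level in KO, 6.21 times in Het and 6.77 times in WT.

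Among the class III POU genes, Pou3f4 rose in Het, at 2.31 RPKM in Het and 0.793 in WT, a log2 fold of 0.88 (adjusted p 0.0263 in the authors' deposited table). Its value in KO was 1.61 RPKM, and the authors' deposited table gave an adjusted p of 0.0917. Pou3f1, the fourth gene of the class and a marker of pyramidal neurons, was not called in either comparison with WT. Pou3f1 had 19.0 RPKM in KO, 14.9 in Het and 15.4 in WT, and the authors' deposited tables gave adjusted p-values of 0.0915 for KO and 0.919 for Het. Rora, the relative of Rorb that is strong in thalamus, fell in Het to 3.68 RPKM, against 5.33 in WT (log2 fold -0.43, adjusted p 0.0413 in the authors' deposited table). In KO it had 3.89 RPKM, for which the authors' deposited table gave an adjusted p of 0.108. Of 11 relatives, 10 were tested: 1 rose and 2 fell in Het, and 0 rose and 1 fell in KO. Of all tested genes 3.95% rose and 5.06% fell in Het, and 6.72% and 7.68% in KO. The relatives Lmo1, Lmo2, Lmo3, Lhx9, Mdga2 and Satb1 were not called in either comparison, with log2 folds between -0.21 (Mdga2 in KO) and 0.29 (Lmo3 in KO).

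A further 11 upper-layer genes were read as a list, chosen with earlier results of these data known. In Het, 3 of the 11 rose and 2 fell, beside 3.95% and 5.06% of all tested genes, with a median log2 fold of 0.03. In KO, 2 rose and 0 fell, beside 6.72% and 7.68% of all tested genes, with a median of -0.14. Lamp5, a lysosome-associated membrane protein of layer 2 and 3 neurons and of one interneuron class, had 20.4 RPKM in Het and 9.50 in WT, a 2.15-fold rise (adjusted p 0.00135 in the authors' deposited table). In KO Lamp5 had 17.2 RPKM, against 9.51 in WT (adjusted p 0.000987 in the authors' deposited table). Plxnd1, a semaphorin receptor that is also made by endothelial and striatal cells, rose in both mutant genotypes. Plxnd1 had 18.1 RPKM in KO, 14.3 in Het and 10.1 in WT, and the authors' deposited tables gave adjusted p-values of 0.000987 for KO and 0.00135 for Het.

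Genes of this list that fell in Het were Unc5d, a netrin receptor of migrating upper-layer neurons, and Otof, which encodes the calcium sensor otoferlin. Unc5d had 2.83 RPKM in Het and 4.30 in WT, a log2 fold of -0.47 (adjusted p 0.00135 in the authors' deposited table). Otof had 0.548 RPKM in Het and 1.51 in WT, a log2 fold of -0.70 (adjusted p 0.00135 in the authors' deposited table). Called upper-layer genes, like the 9 members, thus lay on both sides of WT in Het.

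The 2 members called in Het or KO had their pairs of log2 folds (Het over WT, KO over WT) set beside those of 89 genes of the context lists of at least 1 RPKM. Nearest to Pou3f2 (0.46 and 0.14) were Dsp (0.42 and 0.13, Euclidean distance 0.042) and Bhlhe22 (0.39 and 0.17, distance 0.072). For Rasgrf2 (-0.36 and -0.42) they were Lef1 (-0.37 and -0.48, distance 0.061) and Camk2a (-0.29 and -0.38, distance 0.077). Camk2a was not called in Het or KO (adjusted p 0.423 and 0.243 in the authors' deposited tables). Lef1 was called in KO but not in Het (adjusted p 0.0188 and 0.175 in the authors' deposited tables). The likeness rests on 3 genotypes and is a description.

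Markers of other cell types and regions differed between the genotypes. Changed cell numbers, changed RNA per cell and a different cut at dissection cannot be told apart in tissue RNA. Beside the counts below, 3.95% of all tested genes rose and 5.06% fell in Het, and 6.72% and 7.68% in KO. In KO against Het the shares were 0.917% higher and 0.953% lower. Cortical glutamatergic neuron markers were present in every genotype: of 7, 1 rose and 0 fell in Het, and 0 rose and 1 fell in KO. The one that rose was Tbr1 (log2 fold 0.52, adjusted p 0.00135 in the authors' deposited table), which is also counted among the deep-layer markers below. The one that fell was Slc17a7, the vesicular glutamate transporter, at 393 RPKM in KO and 575 in WT (adjusted p 0.000987 in the authors' deposited table). Striatal projection neuron markers rose in 13 of 13 in Het and 13 of 13 in KO against WT, and 0 of 13 were called in KO against Het, with a summed level of 502 RPKM in KO, 484 in Het and 61.7 in WT. Choroid plexus markers fell in 7 of 8 in Het and 7 of 8 in KO against WT, and in 3 of 6 tested in KO against Het, with sums of 87.9 RPKM in KO, 290 in Het and 2073 in WT. Ttr alone gave 83.6, 281 and 2028 RPKM of these sums. Thalamic markers fell in 3 of 6 tested in Het and 5 of 6 in KO, with sums of 106, 104 and 137 RPKM in KO, Het and WT. Calb2 alone gave 71.0, 65.3 and 90.8 RPKM of these sums. In KO against Het, 1 of 6 tested thalamic markers was called higher (Slc17a6) and 1 lower (Prkcd). Slc17a6 had 15.0 RPKM in KO, 9.10 in Het and 12.6 in WT. Prkcd had 13.4 RPKM in KO, 22.4 in Het and 17.9 in WT. No marker of these 3 lists was listed at 0.

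Of 13 deep-layer markers, 7 rose and 4 fell in Het, and 6 rose and 0 fell in KO. The layer 6 and striatal genes Syt6 and Foxp2 and the calmodulin-binding Pcp4 led the rises. Among the 4 that fell in Het were Etv1 (log2 fold -0.92), Ldb2 (-0.65) and Crym (-0.51). Each of these was also among the 4 of 13 called higher in KO against Het, where 0 were called lower. Neural progenitor markers rose in 4 of 8 and immature neuron markers in 5 of 7 in Het, and in 4 of 8 and 6 of 7 in KO. Hippocampal markers rose in 2 of 7 and fell in 2 in Het, and 1 fell in KO. Several of the 9 members are also expressed outside upper layers, among them Lmo4 in striatum and amygdala, Rorb in thalamus, and Pou3f2, Pou3f3 and Lhx2 in progenitors. The part of these marker changes in the values of the 9 members was not tested.

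**Figure D4:**
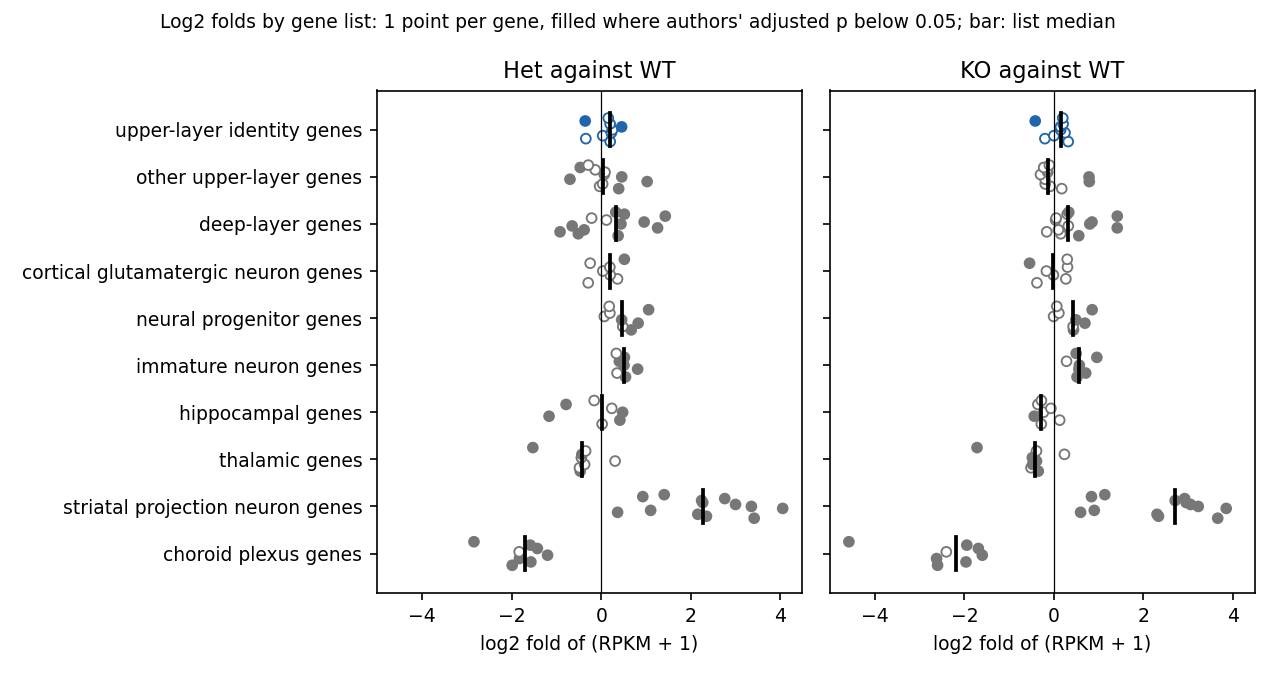
Log2 fold of (RPKM + 1) in Het against WT and KO against WT, 1 point per gene, for the 9 upper-layer identity genes (blue) and 9 context lists (grey); filled points have an authors' adjusted p below 0.05 and black bars are list medians. The 9 genes lie between -0.42 and 0.46, whereas striatal projection neuron markers have medians of 2.27 in Het and 2.71 in KO and choroid plexus markers -1.71 and -2.19.

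The libraries were made with a kit that does not mark strand, as far as the labels name the kit, so reads of overlapping genes on the other strand cannot be told apart. In GENCODE M21, Cux1 and Mdga1 each overlap 1 such gene and Cux2 and Lhx2 overlap 2 each. Pou3f2, Rasgrf2 and Rorb overlap no other annotated gene, and Pou3f3 and Lmo4 overlap 1 gene each on their own strand.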

How the data were processed

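Cortex RNA was sequenced as paired ends from TruSeq RNA v2 libraries, per the labels' protocols. Build mm9 and the tools Cuffdiff 2.2.1, TopHat2 2.0.13 and CASAVA 1.4 are listed, without roles, in the submitters' processing notes. The annotation used for the tables is not stated there. The deposited tables hold 1 RPKM value per genotype and a p-value and adjusted p-value per gene, per the file headers. Rows with a p of 1 count as untested. No test of expression was run here. The tests are the authors', adjusted over all tested genes of a table, and no value column lacked a genotype (0 unmapped). Log2 folds use a pseudocount of 1 RPKM and are read within a table.

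The members and lists were chosen with earlier results of these data known. Named genes are the 9 members, their relatives of at least 1 RPKM, up to 3 called genes per list and comparison by smallest adjusted p, and the 2 nearest patterns per called member. Ties in adjusted p went to the larger absolute log2 fold. Of the genes this rule allows, those bearing on the members are given. One gene of the context lists is not reported here and was left out of their counts. The miRNA sequence is from RefSeq (GRCm38.p6) and 3′ UTRs are from GENCODE M21 (GRCm38), joined by symbol for 90.2% of 13822 genes of at least 1 RPKM; the tables' build differs, so these coordinates serve only the reference sequences. Python 3.11.15, pandas 2.3.3 and numpy 2.4.6 were used, and the adjustment and the match search were tested on simulated data.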

Additional observations from a re-analysis of the deposited data

Results flagged for a closer look

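Otof, one of the further upper-layer genes, differed between the 2 mutant genotypes in the authors' direct test, at 1.19 RPKM in KO and 0.552 in Het, a log2 fold of 0.50 (adjusted p 0.00517 in the authors' deposited table). It had fallen in Het, and in KO it had 1.19 RPKM against 1.51 in WT (adjusted p 0.202 in the authors' deposited table). In that test 0 of the 9 members passed, where 1.87% of all tested genes did.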

How the results depend on the processing

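No paired analysis was possible because each table holds 1 pooled value per genotype, and for the same reason no library could be left out. With a minimum absolute log2 fold of 0.5, 0 members were called in Het and 0 in KO, and genes called numbered 670 and 916. The loss of Pou3f2 in Het there rests on the pseudocount of 1, since its log2 fold was 0.46 with it but 0.59 with a pseudocount of 0.1 and 0.60 with 0.01. With at least 5 RPKM in either genotype, 1 member was called in Het (Pou3f2 lay below that level). At an adjusted p below 0.01, 779 genes were called in Het against WT, 1142 in KO against WT and 160 in KO against Het, and the member counts stayed at 2, 1 and 0. The count of 2 in Het holds only barely, since Rasgrf2 had an adjusted p of 0.009997 there in the authors' test. Adjustment over the 3 tables together gave 435 genes in KO against Het and again 0 members. With the shortest 3′ UTR, 1 member held a seed match, beside 9.2% of 12463 genes of at least 1 RPKM with an annotated 3′ UTR. No fold of a member changed sign with a pseudocount of 0.1 or 0.01 or with recentring, and the members' medians moved by less than 0.1 on the log2 scale. Depth per library is unknown, so small differences of low genes such as Rorb cannot be judged.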
